A study of Mus musculus with 8 samples.

Results

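Rny1 and Rny3 are the mouse Y RNA genes of chromosome 6, and the values here are those of sperm small RNA species that map inside them. A species is a name of a piRNA catalogue with its own position and a level in RPM, reads scaled to the size of the library. All names whose listed position fell in the small stretch of chromosome 6 that holds both genes were taken, each once per table. That gave 18 of 13450 names in the table of the toxin experiment and 28 of 17375 in the table of the knockdown experiment. Together these are 37 different names of 20210, of which 24 lie in Rny1 and 13 in Rny3, and 9 are listed in both tables. The genes were chosen by their lower RPM in the knockdown experiment, so the values of that experiment are given below as a description, without a test.

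The libraries were made from sperm of Balb/c mice, with a developmental stage of 8 months after birth in all 8 libraries. The 4 groups of 2 libraries each, A and B, were MC-LR (microcystin-LR, a cyanobacterial toxin) and its control, and an shRNA against Hsp90aa1 (which encodes a cytosolic heat shock protein 90 chaperone) and its negative-control shRNA. The study's design mentions 2 doses of MC-LR, but no label ties a dose, time or route to a library, so MC-LR A and B may not have had the same dose and are replicates by their titles alone. How and into which cells the shRNA was brought is not stated either. Whether A and B of a group are separate animals is not stated, and a p-value here reflects only how far such libraries differ, possibly for technical reasons. The files hold small RNA, and the Hsp90aa1 messenger, the target of the shRNA, was not measured in them.

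Y RNAs are small noncoding RNAs made by RNA polymerase III. Their ends pair into a stem, which binds the Ro60 protein, their uridine-rich tail binds the La protein, and a loop lies between. Cells and body fluids, sperm and seminal plasma among them, also hold short fragments of both ends of Y RNAs. The genes are shown first because every listed name came from one of their ends. Sequences are those of the GENCODE M21 transcripts (GRCm38, the assembly of mm10), 5′ to 3′, and capitals mark the bases that at least 1 name covered.
Rny1: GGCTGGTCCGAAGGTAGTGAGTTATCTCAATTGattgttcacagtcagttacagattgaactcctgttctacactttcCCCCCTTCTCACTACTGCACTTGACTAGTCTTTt
Rny3: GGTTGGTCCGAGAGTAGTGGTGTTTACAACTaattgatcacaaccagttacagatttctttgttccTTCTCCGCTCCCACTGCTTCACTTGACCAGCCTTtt

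Rny1 lies on the minus strand at chr6:47788069-47788180 and has 112 nt. Its names covered bases 1 to 33 and 79 to 111 and left the 45 nt between them without a name. Rny3 lies on the plus strand at chr6:47781624-47781725 and has 102 nt, of which bases 1 to 31 and 67 to 100 were covered and 35 nt between them were not. No name of either gene ran from one end into the middle. The genes share 81 of 112 columns of their global alignment, or 72.3%, and 17 of their first 24 bases, which is enough difference to tell their fragments apart. Each of the 37 sequences was found in its own gene and in no other GENCODE transcript.

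In a predicted minimum free energy fold, the covered ends paired with each other over part of their length. In Rny1, 26 of the 33 bases of the 5′ stretch were paired, 17 of them with the 3′ stretch, at -34.3 kcal/mol. In Rny3, 25 of 31 were paired, 21 of them with the 3′ stretch, at -27.1 kcal/mol.

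**Figure D1:**
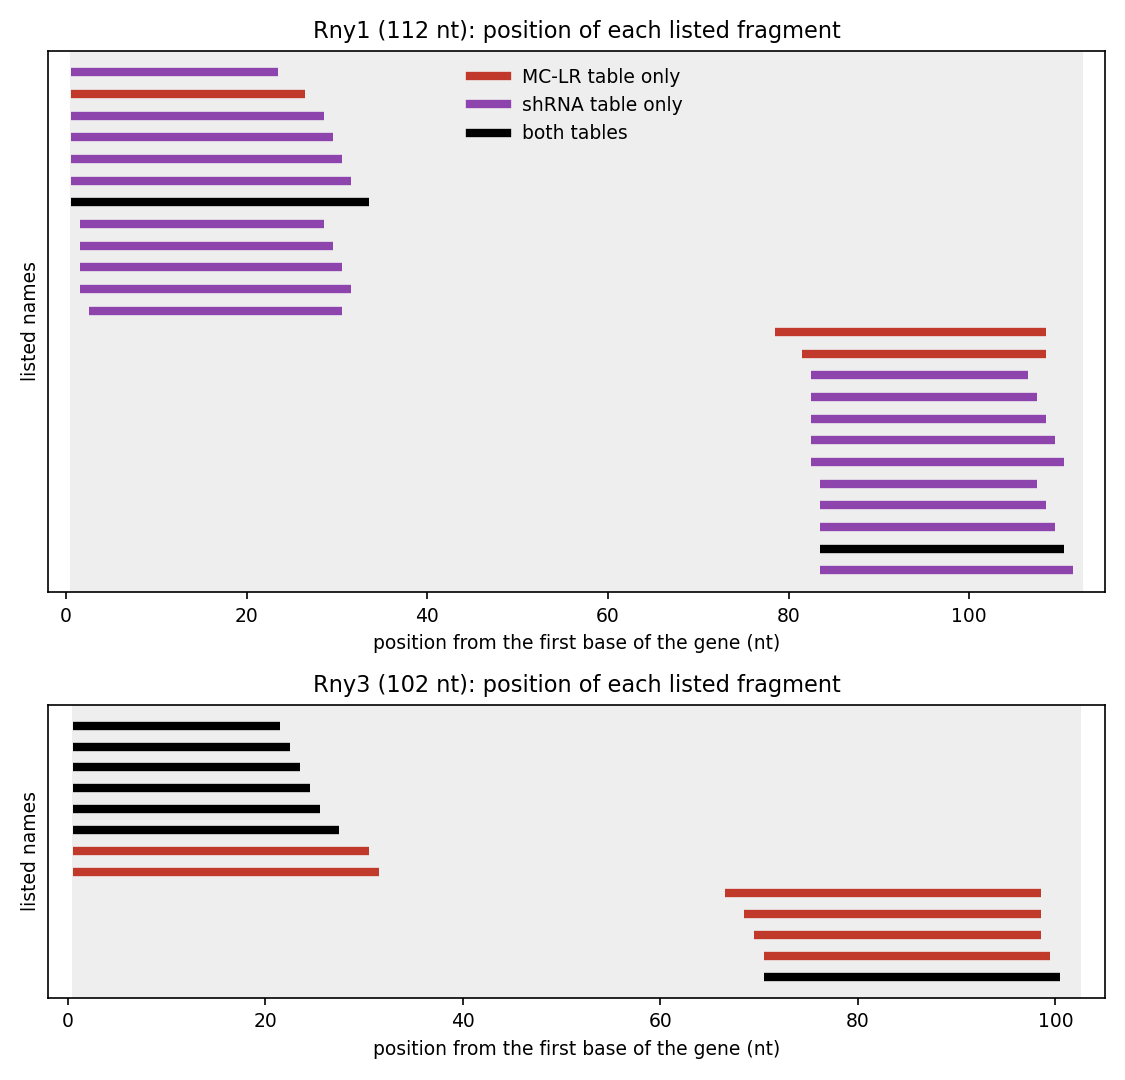
Listed names along Rny1 and Rny3, in nt from the gene's first base, with a line for each name, coloured by the table or tables that list it. The names gather at the ends, over bases 1 to 33 and 79 to 111 of Rny1 and bases 1 to 31 and 67 to 100 of Rny3.

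The 37 names were 21 to 33 nt long with a median of 28 nt. Of these, 20 came from the 5′ end (12 of Rny1 and 8 of Rny3) and 17 from the 3′ end (12 and 5). The 5′ ends were sharp: 15 of the 20 began at the first base of the gene, 4 at base 2 and 1 at base 3. The names on which the results turn are printed in lower case, with capitals for the run of 8 bases that the genes share at that end. The 5′ run occupies positions 4 to 11 of both genes and is in all 12 and 8 of their 5′ names. The 3′ run occupies positions 96 to 103 of Rny1 and 86 to 93 of Rny3 and is in all 12 and 5 of their 3′ names.
piR-mmu-49913002, Rny1 5′ end, 31 nt: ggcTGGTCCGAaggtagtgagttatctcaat
piR-mmu-48931958, Rny1 5′ end, 30 nt: ggcTGGTCCGAaggtagtgagttatctcaa
piR-mmu-49042250, Rny1 5′ end, 23 nt: ggcTGGTCCGAaggtagtgagtt
piR-mmu-67691601, Rny1 5′ end, 33 nt: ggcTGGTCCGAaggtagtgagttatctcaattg
piR-mmu-4696478, Rny1 3′ end, 27 nt: ttctcactactgCACTTGACtagtctt
piR-mmu-11468175, Rny3 5′ end, 24 nt: ggtTGGTCCGAgagtagtggtgtt
piR-mmu-10833142, Rny3 5′ end, 27 nt: ggtTGGTCCGAgagtagtggtgtttac
piR-mmu-23721640, Rny3 3′ end, 29 nt: ccgctcccactgcttCACTTGACcagcct
piR-mmu-10899946, Rny3 3′ end, 30 nt: ccgctcccactgcttCACTTGACcagcctt

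The first 4 of these sequences start at the same base and differ only in where they stop, and the same holds for the Rny3 5′ pair. Reads appear to be counted under the name of their own length: in control A the 24-nt Rny3 name had 366 reads, more than the 297 of the 23-nt name inside it and the 139 of the 25-nt name around it. Names of 1 end are still fragments of 1 RNA and not independent measurements of it.

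Library totals recovered from the RPM values ran between 4960467 and 14634370 reads. The listed names held 12.5% and 11.7% of the reads of MC-LR A and B, against 38.1% and 35.3% in control A and B. They held 4.98% and 3.18% in Hsp90aa1 shRNA A and B, against 27.8% and 32.5% in the negative-control libraries A and B. Nearly every listed name was lower in the first-named group, and the RPM of the Y RNA names is read against that background. The median name had an RPM 3.16-fold lower under MC-LR than in the control and 7.28-fold lower with the Hsp90aa1 shRNA than with the negative control. TMM scaling, which takes the bulk of the listed names as unchanged, put the median log2 change of all tested names at 0.0015 under MC-LR, where library totals gave -1.64, and at -0.04 with the Hsp90aa1 shRNA, where they gave -2.83. In bulk sperm RNA, fewer cells that hold a fragment and less of it per cell cannot be told apart.

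Under MC-LR the Y RNA names were lower in RPM, and they were lower by about as much as other listed names. Of 17 names that reached a mean of 1 RPM in a group, 12 fell and 0 rose (limma on log2(RPM + 1), Benjamini-Hochberg adjusted over all names tested), against 73.1% falling and 2.37% rising among all names tested. Those that fell were 11 of 13 in Rny3 and 1 of 4 in Rny1. Without the library MC-LR A the count of names that fell was 5, when 39.6% of all names did. Directions depended on the scaling: with TMM factors the median log2 change was -0.08 for Rny3 and 0.36 for Rny1, 3 of whose 4 names were above 0. With those factors edgeR called 0 of the 17, against 3.05% of all names lower and 2.38% higher, although 1 had an unadjusted p under 0.05. DESeq2 called 0, with 0 under an unadjusted p of 0.05, against 3.01% of all names lower and 2.38% higher. It gave no adjusted p to some of the 17, piR-mmu-64120399 and piR-mmu-23721640 among them, and so could not call those.

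The Rny1 5′ names of 28 to 31 nt were not listed for the toxin experiment. Among the names that were, the Rny3 5′ end gave most of the Y RNA signal. Its 8 names summed to 29.6 and 35.5 RPM in MC-LR A and B, against 103 and 83.5 RPM in control A and B. The groups did not overlap, and the mean was 32.6 ± 4.17 RPM under MC-LR and 93.0 ± 13.5 RPM in the control (SD, n = 2 each), 2.86-fold lower. Of the 8 names, 7 fell, where 73.1% of all names did.

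The 24-nt name, piR-mmu-11468175, was the most abundant Rny3 fragment, with 7.91 and 12.04 RPM in MC-LR A and B against 25.01 and 16.9 RPM in control A and B. Both MC-LR libraries were below both controls, with a log2 change of -1.002 ± 0.38 (SE; limma adjusted p = 0.0331). It was lower by 2.102-fold, the smallest difference among the 13 Rny3 names, and its direction turned under TMM factors (0.57). The call was lost without MC-LR A (limma adjusted p = 0.273), MC-LR B (0.0728) or control A (0.0600). The 23-nt piR-mmu-48877905 had 5.55 and 5.33 RPM under MC-LR and 20.3 and 15.9 RPM in the control (log2 change -1.56, limma adjusted p = 0.00346). The 22-nt piR-mmu-50531755 had 4.54 and 6.25 RPM under MC-LR and 20.0 and 15.1 RPM in the control (-1.54, limma adjusted p = 0.00437), a call lost without MC-LR A (0.0603). In both, the MC-LR libraries lay close together and well below the lower control.

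At the ends of the length range, the 21-nt piR-mmu-33773834 had 4.54 and 4.42 RPM under MC-LR and 15.0 and 7.26 RPM in the control, a log2 change of -1.07 (limma adjusted p = 0.0313), a call lost without MC-LR A (0.114), MC-LR B (0.123) or control A (0.135). The 27-nt piR-mmu-10833142 had 2.02 and 1.22 RPM under MC-LR and 7.31 and 7.86 RPM in the control (-1.73 ± 0.35 SE, limma adjusted p = 0.00231), and the fold was 4.68. The 31-nt piR-mmu-3105568 was the Rny3 5′ name that did not pass the test (limma adjusted p = 0.105). It had 0.337 and 0.762 RPM under MC-LR and 0.615 and 3.63 RPM in the control, so the groups overlapped, with 2 and 5 reads against 9 and 18.

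The lengths of the Rny3 5′ names kept the same profile in 3 of the 4 libraries. Reads of 24 nt or less made up 76.1% and 79.0% of the Rny3 5′ reads in MC-LR A and B, against 78.3% and 66.2% in control A and B. Control B stood apart with more long reads, and the groups overlapped.

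The 3′ end of Rny3 was rarer and its names were longer, 29 to 32 nt. Its 5 names summed to 2.19 and 2.29 RPM in MC-LR A and B, against 9.43 and 13.5 RPM in control A and B. The mean was 2.24 ± 0.0694 RPM under MC-LR and 11.5 ± 2.88 RPM in the control (SD, n = 2 each), 5.13-fold lower, and the groups did not overlap. Of the 5 names, 4 fell, again near the 73.1% of all names.

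The most abundant of them, the 30-nt piR-mmu-64120399, had 0.673 and 0.762 RPM under MC-LR and 3.07 and 5.24 RPM in the control (log2 change -1.55, limma adjusted p = 0.00417). The 29-nt piR-mmu-23721640 had 0.168 and 0.152 RPM under MC-LR, 1 read in each library, and 2.12 and 1.81 RPM in the control (limma adjusted p = 0.00295). From pooled reads it was 12.8-fold lower, with a 95% interval of 3.31 to 109 that, like all read intervals here, accounts for counting error alone, as the files show no molecular identifiers. The 30-nt piR-mmu-10899946, which holds it and 1 base more, did not pass the test (limma adjusted p = 0.0597), with 0.168 and 0.457 RPM under MC-LR and 1.02 and 1.01 RPM in the control. The longest, the 32-nt piR-mmu-38487243, had 0.337 and 0.457 RPM under MC-LR and 1.503 and 3.02 RPM in the control (log2 change -1.19, limma adjusted p = 0.0111), a call lost without MC-LR A (0.0672). At this depth the 3′ names of Rny3 rested on 1 to 5 reads in each MC-LR library. No listed name had 0 reads in a library of its experiment, so folds and intervals on 1 read hold only for names that were listed.

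**Figure D2:**
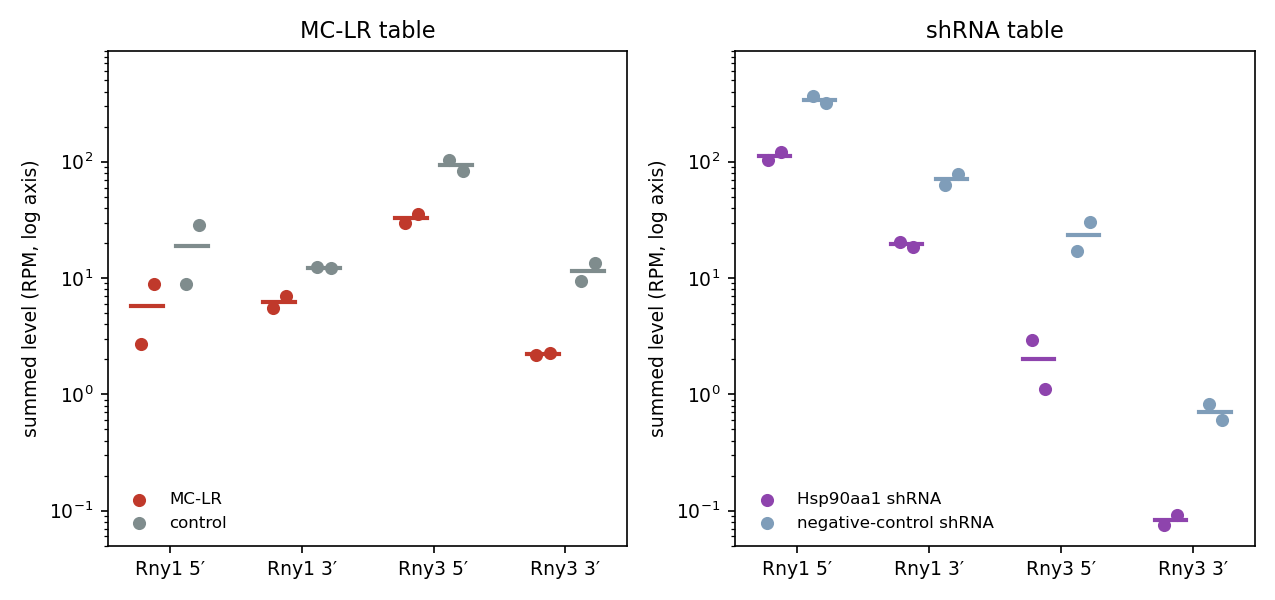
Summed RPM of the listed names of each gene and end in each library (log axis), with MC-LR left of control, the Hsp90aa1 shRNA left of its negative control and bars at the means of 2 libraries. Rny3 5′ names summed to 29.6 and 35.5 RPM under MC-LR against 103 and 83.5 RPM in the control, and Rny1 5′ names to 104 and 121 RPM with the Hsp90aa1 shRNA against 366 and 317 RPM with the negative control, on the scale of library totals; TMM scaling turns the direction of most Rny1 names.

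Rny1 had fewer listed names in the toxin experiment, 2 from the 5′ end and 3 from the 3′ end. Its 5′ names summed to 2.69 and 8.84 RPM in MC-LR A and B, against 8.88 and 28.6 RPM in control A and B. MC-LR B and control A were nearly equal, so that the groups almost met, and within each group B was about as far above A as the groups were apart. The 33-nt piR-mmu-67691601 carried most of it, with 2.36 and 8.23 RPM under MC-LR and 7.86 and 27.2 RPM in the control. It was the Rny1 name that fell (log2 change -1.51 ± 0.59 SE, limma adjusted p = 0.0402), although its groups overlapped. The call rested on single libraries: the log2 change was -0.78 without MC-LR A (limma adjusted p = 0.250) and -0.67 without control B (0.0852), and it was -2.24 without MC-LR B and -2.34 without control A. The other 5′ name, the 26-nt piR-mmu-4805795, had 0.337 and 0.610 RPM under MC-LR and 1.03 and 1.41 RPM in the control (limma adjusted p = 0.0815).

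The 3′ names of Rny1 were steadier between libraries, at 5.55 and 7.01 RPM in MC-LR A and B against 12.5 and 12.1 RPM in control A and B. The 27-nt piR-mmu-4696478 made up most of this, with 4.88 and 6.25 RPM under MC-LR and 10.2 and 10.3 RPM in the control. Its groups did not overlap and the fold was 1.84, yet it did not pass the test (log2 change -0.79 ± 0.34 SE, limma adjusted p = 0.0543). Another 27-nt name, piR-mmu-55381346, had 0.505 and 0.457 RPM under MC-LR and 1.503 and 0.605 RPM in the control (limma adjusted p = 0.193). The third 3′ name, piR-mmu-55773028, was under the limit of 1 RPM and was not tested, with 0.168 and 0.305 RPM under MC-LR and 0.752 and 1.21 RPM in the control.

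Over all 18 names the mean was lower under MC-LR in every one, and in 16 the groups did not overlap, against 92.6% of all names in the table. The median fold was 3.33 lower for the 13 Rny3 names and 2.57 lower for the 5 Rny1 names, on either side of the 3.16 of all names. Set against listed names of the same length, 9 of 13 Rny3 names and 1 of 5 Rny1 names had a larger fold than the median.

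The balance of the ends and that of the genes were compared over 2 against 2 libraries, where an exact permutation test cannot give a two-sided p below 0.333. The 5′ share of Rny3 reads was 93.1% (95% exact interval 88.5 to 96.3) and 94.0% (90.2 to 96.6) in MC-LR A and B, against 91.6% (90.1 to 92.9) and 86.1% (82.7 to 89.0) in control A and B. The groups did not overlap, with a difference of 4.71 percentage points and that smallest exact permutation p of 0.333. With only the most abundant name of each 5′ start the difference was 17.05 points. All 8 Rny3 5′ names start at base 1, so only the 24-nt name then stood for that end, while most 3′ names stayed. The values are therefore not the same measure. For Rny1 the share was 32.7% (19.9 to 47.5) and 55.8% (45.7 to 65.5) in MC-LR A and B, and 41.5% (36.0 to 47.2) and 70.3% (63.5 to 76.5) in control A and B. The groups overlapped (difference -11.7 points, exact permutation p = 0.667), and in both groups library B had the larger share. These shares and the ratios of the genes count listed names only, and Rny1 5′ names of 28 to 31 nt were not listed here. Rny1 reads were 0.259 and 0.419 times those of Rny3 under MC-LR and 0.191 and 0.420 times in the control (difference 0.22 on the log2 scale, exact permutation p = 1).

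With the Hsp90aa1 shRNA, Rny1 names made up more of the Y RNA reads and Rny3 names less than with its negative control. Rny1 names were lower by a median of 3.65-fold and Rny3 names by 11.8-fold, while the median of all names was 7.28-fold. All 28 names were lower in both Hsp90aa1 libraries than in both negative controls, as were 99.8% of the names of this table. In the fit 26 of the 27 names above 1 RPM passed as lower and 0 as higher, against a background of 99.5% lower and 0.219% higher. With TMM factors edgeR called 0 of them (0.083% of all names lower, 0.219% higher), and DESeq2 called 0 (0.724% lower, 0.219% higher). DESeq2 gave no adjusted p to any tested Rny3 name or to some Rny1 names, so it could not call those. Since the genes were chosen on this contrast, these counts are no test of the names and nothing is read from them. On TMM scaling the genes stood on opposite sides of 0: the median log2 change was 0.96 for Rny1, with 19 of 21 names above 0, and -0.84 for Rny3, with 1 of 6 above 0.

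Among the listed names, the Rny1 5′ end dominated the Y RNA reads of the knockdown experiment. Its 11 names summed to 104 and 121 RPM in Hsp90aa1 shRNA A and B, against 366 and 317 RPM in negative-control shRNA A and B. The mean was 112 ± 12.6 RPM with the Hsp90aa1 shRNA and 342 ± 34.2 RPM with the negative control (SD, n = 2 each), 3.04-fold lower, and TMM scaling turned that direction for all of them except the 23-nt name. Both groups were tight, with libraries that differed far less from each other than from the other group.

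Most of that sum sat in neighbouring lengths that start at base 1. The 31-nt piR-mmu-49913002 had 51.0 and 66.1 RPM in Hsp90aa1 shRNA A and B against 137 and 106 RPM in negative-control shRNA A and B. The 30-nt piR-mmu-48931958 had 25.9 and 29.8 RPM against 132 and 109 RPM in the same libraries. The names were about equally abundant with the negative control, and with the Hsp90aa1 shRNA the longer one was the more abundant. The 31-nt name was 2.08-fold lower and the 30-nt name 4.33-fold lower (1.85 and 0.78 higher on the log2 scale with TMM factors).

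These names differ by 1 base at their 3′ end. The ratio of the 31-nt to the 30-nt name was 1.97 and 2.22 in Hsp90aa1 shRNA A and B, against 1.04 and 0.972 in the negative-control libraries A and B. The groups did not overlap, and a ratio within a library does not depend on the scaling. This and the next pairs were chosen after their values were seen. The 29-nt piR-mmu-56137611 over the 28-nt piR-mmu-4973331 gave 2.38 and 2.35 with the Hsp90aa1 shRNA and 1.51 and 1.37 with the negative control. The step between these pairs went the other way, with 3.72 and 4.42 for the 30-nt over the 29-nt name with the Hsp90aa1 shRNA, against 6.96 and 5.11 with the negative control.

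Among names that start at base 2, the pair that stops where the 31-nt and 30-nt names stop gave overlapping groups. The 30-nt piR-mmu-33213398 ends where the 31-nt name ends, and its ratio to the 29-nt piR-mmu-58657505 was 0.368 and 0.256 in Hsp90aa1 shRNA A and B, against 0.406 and 0.363 in the negative-control libraries A and B. The pair that stops where the 29-nt and 28-nt names stop, the 28-nt piR-mmu-6047705 over the 27-nt piR-mmu-8133887, gave 4.75 and 2.14 with the Hsp90aa1 shRNA and 1.79 and 1.56 with the negative control. There the groups did not overlap and the direction was that of the base 1 pair, on 4 and 7 reads of the shorter name with the Hsp90aa1 shRNA. The 29-nt piR-mmu-58657505 itself had 7.93 and 7.201 RPM with the Hsp90aa1 shRNA and 26.4 and 25.3 RPM with the negative control, 3.42-fold lower.

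The shortest Rny1 5′ fragment behaved unlike the longer ones. The 23-nt piR-mmu-49042250 had 1.05 and 0.185 RPM in Hsp90aa1 shRNA A and B, from 14 and 2 reads, against 8.44 and 13.5 RPM in negative-control shRNA A and B. It was 17.8-fold lower, the largest fold of the 21 Rny1 names, where the median of all names of 23 nt was 7.97-fold. The longest, the 33-nt piR-mmu-67691601, had 2.17 and 3.14 RPM with the Hsp90aa1 shRNA and 8.96 and 6.13 RPM with the negative control, 2.84-fold lower (1.39 higher on the log2 scale with TMM factors). The least abundant 5′ name, the 27-nt piR-mmu-8133887 that starts at base 2, had 0.299 and 0.646 RPM with the Hsp90aa1 shRNA and 2.47 and 2.92 RPM with the negative control.

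The mean length of Rny1 5′ reads was accordingly 30.2 and 30.4 nt in Hsp90aa1 shRNA A and B, against 30.03 and 29.8 nt in negative-control shRNA A and B. That is a small shift in a group of reads of which 93.5% and 94.6% with the Hsp90aa1 shRNA, against 91.4% and 87.4% with the negative control, were 29 nt or longer.

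**Figure D3:**
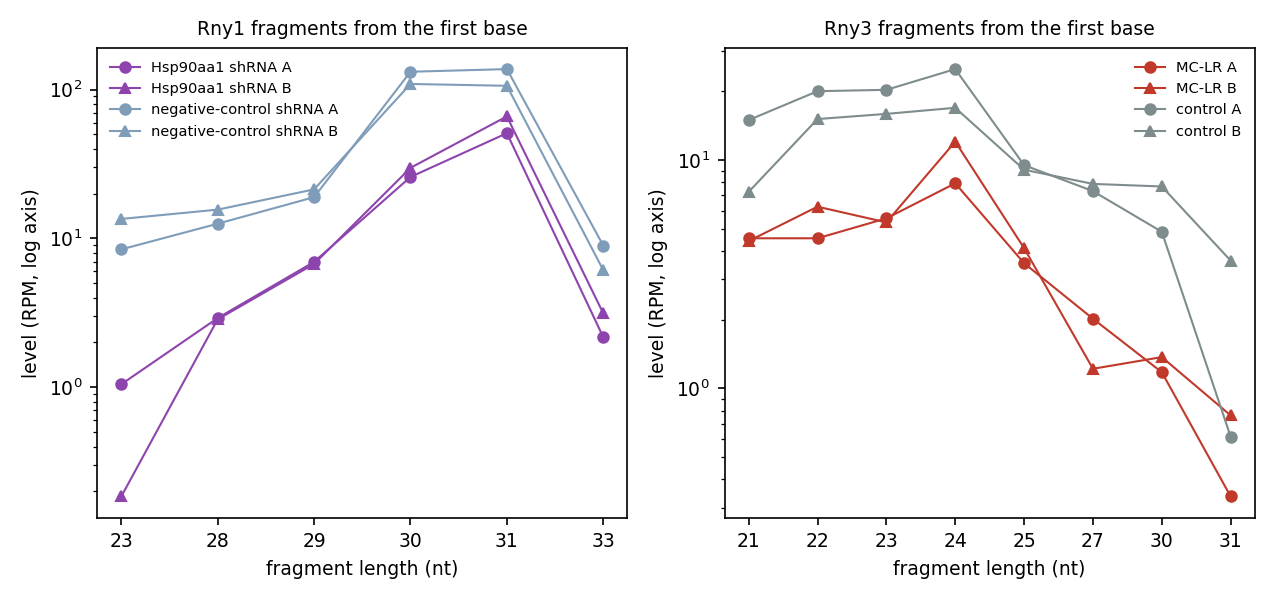
RPM (log axis) against fragment length in nt of the names that start at base 1, with a line for each library: Rny1 in the shRNA table (left) and Rny3 in the MC-LR table (right). Rny1 peaks at 30 and 31 nt with the negative control and at 31 nt with the Hsp90aa1 shRNA, while Rny3 peaks at 24 nt in all 4 libraries of its table.

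The Rny1 3′ end was represented by 10 names of 24 to 28 nt, which start at base 83 or 84 and stop between bases 106 and 111. They summed to 20.6 and 18.5 RPM in Hsp90aa1 shRNA A and B, against 63.1 and 79.2 RPM in negative-control shRNA A and B. The mean was 19.5 ± 1.497 RPM with the Hsp90aa1 shRNA and 71.2 ± 11.4 RPM with the negative control (SD, n = 2 each), 3.65-fold lower. The 3′ names thus stood about as far below the negative control as the 5′ names of the same gene, and with TMM factors 9 of the 10 were above 0.

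The 27-nt piR-mmu-5054363 led the 3′ names, with 4.34 and 3.32 RPM with the Hsp90aa1 shRNA and 11.6 and 16.4 RPM with the negative control. The 28-nt piR-mmu-31325732, 1 base longer at its 3′ end, had 4.12 and 3.42 RPM with the Hsp90aa1 shRNA and 12.98 and 13.5 RPM with the negative control. The 27-nt piR-mmu-4696478, the 3′ name that both tables list, had 2.77 and 1.57 RPM with the Hsp90aa1 shRNA and 7.72 and 9.12 RPM with the negative control. All 3 were between 3.52-fold and 3.88-fold lower, in a table where names of 27 nt had a median of 6.47-fold. The lowest of the shortest 3′ names, the 24-nt piR-mmu-54784194, had 3 and 2 reads with the Hsp90aa1 shRNA and 17 and 31 with the negative control, and it was 9.94-fold lower by mean RPM. It is also listed at another locus, as is piR-mmu-31325732.

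Rny3 was rare among the listed names with both shRNAs. Its 6 names from the 5′ end, 21 to 27 nt long and all starting at base 1, summed to 2.92 and 1.11 RPM in Hsp90aa1 shRNA A and B, against 16.99 and 30.3 RPM in negative-control shRNA A and B. The mean was 2.01 ± 1.28 RPM with the Hsp90aa1 shRNA and 23.6 ± 9.39 RPM with the negative control (SD, n = 2 each), 11.7-fold lower. The groups did not overlap, but libraries of 1 group differed more than for Rny1, with Hsp90aa1 shRNA B below A and negative-control shRNA B above A. Behind the Hsp90aa1 shRNA sums stood 39 and 12 reads.

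The 24-nt piR-mmu-11468175 was again the most abundant Rny3 name, with 0.973 and 0.185 RPM with the Hsp90aa1 shRNA and 4.63 and 6.20 RPM with the negative control, 9.36-fold lower. The 27-nt piR-mmu-10833142 had 0.225 and 0.185 RPM with the Hsp90aa1 shRNA, from 3 and 2 reads, and 4.22 and 4.93 RPM with the negative control. From pooled reads it was 22.4-fold lower (95% interval 9.31 to 70.5). The 22-nt piR-mmu-50531755 had 2 and 1 reads with the Hsp90aa1 shRNA and 18 and 51 with the negative control, 24.1-fold lower from pooled reads (7.91 to 120). With so few reads, the size of these folds is uncertain.

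The remaining 5′ names of Rny3 lay between them. The 21-nt piR-mmu-33773834 had 0.524 and 0.0923 RPM with the Hsp90aa1 shRNA and 1.96 and 5.31 RPM with the negative control. The 23-nt piR-mmu-48877905 had 0.374 and 0.0923 RPM with the Hsp90aa1 shRNA and 1.44 and 4.93 RPM with the negative control. In the 25-nt piR-mmu-10886432 the levels were 0.674 and 0.462 RPM with the Hsp90aa1 shRNA and 2.88 and 5.08 RPM with the negative control, 7.02-fold lower, the smallest fold of the 7 Rny3 names. It was also the Rny3 name that TMM factors put at 0.00 on the log2 scale.

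From the 3′ end of Rny3 a single name, the 30-nt piR-mmu-10899946, was listed. It had 1 and 1 reads with the Hsp90aa1 shRNA and 8 and 8 with the negative control, or 0.0748 and 0.0923 RPM against 0.824 and 0.598 RPM. The pooled ratio was 8.38-fold lower, with an interval of 1.97 to 75.1. All of these values with the Hsp90aa1 shRNA are under the level of 3 reads, which was 0.225 RPM in library A and 0.277 RPM in library B, and the name was left out of the fit.

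Against all names of the same length, 19 of the 21 Rny1 names had a smaller fold than the median and 6 of the 7 Rny3 names had a larger one. Names that share the printed runs of 8 bases thus stood on either side of the median. At the 5′ end, gene and length went together for most reads. Rny3 5′ names were 21 to 27 nt, while 87.4% to 94.6% of Rny1 5′ reads were 29 nt or longer. The 23-nt Rny1 5′ name was 17.8-fold lower, while Rny1 3′ names of 24 to 28 nt had a median of 3.77-fold. The part of length in the difference between the genes was not tested.

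**Figure D4:**
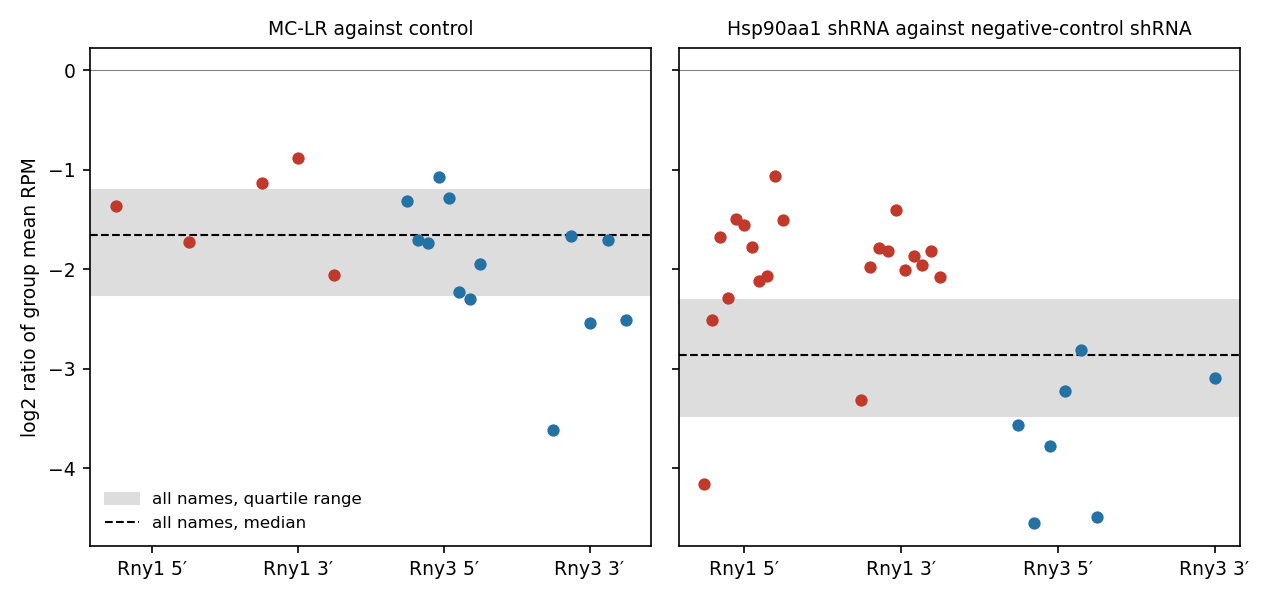
Log2 ratio of the group mean RPM of each name, by gene and end, for MC-LR against control (left) and the Hsp90aa1 shRNA against the negative-control shRNA (right), with the median and quartile range of all names. In the shRNA panel most Rny1 names lie above the median of -2.86 and most Rny3 names below it, while in the MC-LR panel both genes surround the median of -1.66; values are on the scale of library totals, and TMM scaling puts most Rny1 names above 0.

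The ratio of the genes within a library restates the same reads without any scaling. It is a description only, since the genes were chosen on this contrast. Rny1 reads were 41.5 and 117 times those of Rny3 in Hsp90aa1 shRNA A and B, against 24.1 and 12.9 times in negative-control shRNA A and B. The groups did not overlap and the difference was 1.98 on the log2 scale, 3.95-fold. Behind the Rny3 side of these ratios stood 40 and 13 reads with the Hsp90aa1 shRNA and 173 and 413 with the negative control.

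With the Hsp90aa1 shRNA the 5′ share overlapped that of the negative control in both genes. The 5′ share of Rny1 reads was 83.4% (95% exact interval 81.5 to 85.2) and 86.8% (85.0 to 88.5) in Hsp90aa1 shRNA A and B, against 85.3% (84.2 to 86.3) and 80.0% (78.9 to 81.1) in negative-control shRNA A and B. For Rny3 it was 97.5% (86.8 to 99.9) and 92.3% (64.0 to 99.8) in Hsp90aa1 shRNA A and B, against 95.4% (91.1 to 98.0) and 98.1% (96.2 to 99.2) in negative-control shRNA A and B. The 3′ side of Rny3 was 1 name with 1 read in each Hsp90aa1 shRNA library, so its share could hardly have shown a separation.

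The tables share 9 of the 37 names. The Rny1 5′ names of 28 to 31 nt, which carried most reads of that gene, are listed in the shRNA table alone. Sums of Rny1 are therefore not compared between the tables. The 33-nt Rny1 name piR-mmu-67691601 was 3.31-fold lower under MC-LR and 2.84-fold lower with the Hsp90aa1 shRNA, each against its own control. The 27-nt Rny1 3′ name piR-mmu-4696478 was 1.84-fold lower under MC-LR and 3.88-fold lower with the Hsp90aa1 shRNA. The 24-nt Rny3 name piR-mmu-11468175 was 2.102-fold lower under MC-LR and 9.36-fold lower with the Hsp90aa1 shRNA, and the median of all names is different in the tables too. For all 3, TMM scaling gave other directions or sizes: the log2 changes of the Rny1 names with the Hsp90aa1 shRNA were then 1.39 and 0.85, and that of the Rny3 name -0.42.

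**Figure D5:**
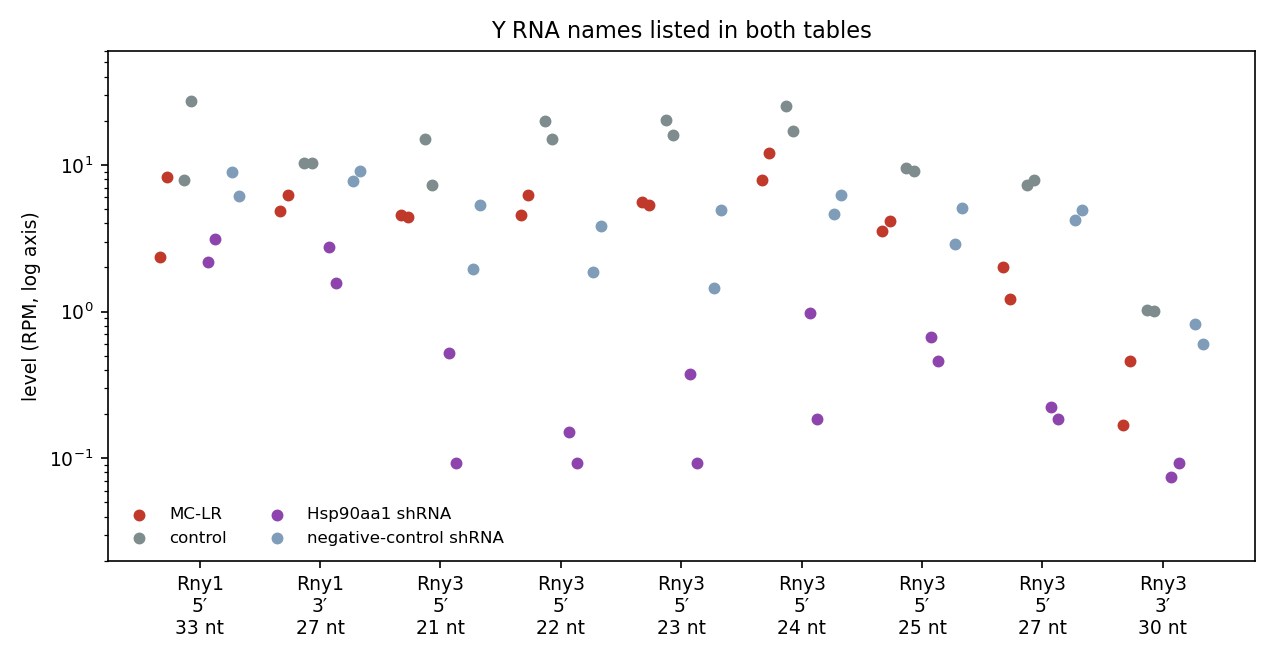
RPM (log axis) of the 9 Y RNA names listed in both tables, with a point for each library: MC-LR and control, then Hsp90aa1 shRNA and negative-control shRNA. The 7 Rny3 names lie lowest with the Hsp90aa1 shRNA, between 0.0748 and 0.973 RPM.

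By median log2 ratio of group means, other small structural RNAs lay below all names under MC-LR, at -2.04 against -1.66. With the Hsp90aa1 shRNA they lay above all names, at -2.35 against -2.86. Of 21 entries fixed for comparison (7SK, signal recognition particle, RNase MRP, spliceosomal, 5S and similar RNAs), 10 had listed names. Under MC-LR, 40 of the 124 names came from 7SK (Rn7sk, median -1.99) and 40 from the spliceosomal Rnu5g (-2.25). Other entries lay on either side of -1.66, such as RNase MRP (Rmrp, -1.31) and Rnu73b (-2.74). All entries together summed to 1033 and 965 RPM in MC-LR A and B, against 1397 and 2657 RPM in control A and B. Among names listed in the MC-LR experiment, 91 of 116 tested fell and 1 rose (limma), against 73.1% and 2.37% of all names, with a median log2 ratio of group means of -2.04 for the 124 names listed, while the Y RNA names had -1.73 for Rny3 and -1.36 for Rny1. Of those in the shRNA table all 124 tested names were lower, against 99.5% of all names, and the 132 listed had a median of -2.35, between -1.87 for Rny1 and -3.56 for Rny3. The Y RNA partners Ro60, Ssb (La), Ybx1 and Zc3h11a had no listed name in either table. Nucleolin (Ncl), which also binds Y RNA, had 24 exon names in the MC-LR table, of which 24 fell against 73.1% of all names, and 16 in the shRNA table, with medians of -2.61 and -3.03. Exons of every annotated Ncl transcript were taken, and whether these short names come from its messenger was not tested.

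Some microRNAs that mark cell types had the order over the shRNA libraries that Rny3 shared with all listed names together. Erythroid ones did not. Epithelial microRNAs (Mir200 family and Mir141, 27 names) summed to 399 and 110 RPM in Hsp90aa1 shRNA A and B, against 2591 and 3801 RPM in negative-control shRNA A and B. Smooth muscle microRNAs (Mir143 and Mir145a, 22 names) summed to 1023 and 219 RPM with the Hsp90aa1 shRNA, against 3682 and 7180 RPM with the negative control. Germ cell microRNAs (Mir34b, Mir34c and Mir449a, 26 names) summed to 634 and 163 RPM with the Hsp90aa1 shRNA, against 1327 and 2641 RPM with the negative control. In each of these 3 lists and in Rny3, library B was below A with the Hsp90aa1 shRNA and above A with the negative control, whereas Rny1 summed to 124 and 139.9 RPM against 429 and 397 RPM. The part of these cell types in the Rny3 values was not tested.

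Blood cell microRNAs were less abundant. Erythroid ones (Mir451a and Mir144, 11 names) summed to 43.7 and 56.2 RPM with the Hsp90aa1 shRNA, against 272 and 405 RPM with the negative control, so that library B was above A with the Hsp90aa1 shRNA, unlike Rny3. The leukocyte Mir142 (14 names) gave 33.0 and 13.3 RPM with the Hsp90aa1 shRNA against 102 and 204 RPM with the negative control, in the order of Rny3. In the MC-LR table no germ cell marker had a listed name. There the epithelial list (21 names) summed to 2408 and 2490 RPM in MC-LR A and B, against 6388 and 4690 RPM in control A and B. Smooth muscle (8 names) gave 108 and 133 RPM against 297 and 219 RPM, leukocytes (6 names) 8.08 and 12.3 RPM against 20.8 and 18.9 RPM, and Mir451a 0.505 and 1.07 RPM against 1.91 and 3.02 RPM. Hepatocyte Mir122 had no name in either table. Their part in the Y RNA values under MC-LR was not tested.

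Among 2476 other names that averaged 10 RPM or more over the 8 libraries, the profile most like that of the 24-nt Rny3 name was that of piR-mmu-18432507 at chr11:109012075-109012099. The root-mean-square difference of their centred log2(RPM + 1) values was 0.19, where the median candidate had 0.68. Next came 2 names on chromosome 17 inside Gm42418, piR-mmu-34309717 at chr17:39847799-39847821 (0.20) and piR-mmu-10866872 at chr17:39847512-39847536 (0.20). The 33-nt Rny1 name lay further from its nearest names, and further from the median candidate too. Its nearest were piR-mmu-64071493 at chr17:39846534-39846564 (0.36), piR-mmu-60834151 at chr10:62765575-62765605 in Snord98 and Ccar1 (0.37) and piR-mmu-66148566 at chr6:49236509-49236540 (0.39), with a median of 1.12 over all candidates.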

How the data were processed

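The 8 sperm libraries of small RNA were grouped by their titles. The authors deposited a table per experiment that gives a position, strand, piRNA name and RPM value in each library. The submitters' processing notes name HTSeq 0.6.0, HISAT2 2.1.0, Bowtie2 2.2.3 and the mm10 build, without their roles. Neither the read total that RPM was scaled to nor how names came to be listed was found in the labels. No listed name had 0 reads in any library of its experiment. Whether 1 library without reads kept a name off the list is not stated. Dividing a library's values by its smallest gave whole reads (100% within 0.01) and, from them, totals. A floor of 3 reads is 0.505 and 0.457 RPM in the MC-LR libraries A and B, 0.205 and 0.605 in their controls, 0.225 and 0.277 for the Hsp90aa1 shRNA, and 0.309 and 0.224 for its negative control.

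Starts are 0-based in the files and printed 1-based. Names were placed on the GENCODE M21 genes (GRCm38) and called 5′ or 3′ by the gene's midpoint. Each table was fitted whole with limma 3.58.1 (R 4.3.3) on log2(RPM + 1), which understates changes of low names, for names reaching a mean of 1 RPM in a group, with Benjamini-Hochberg adjustment at 0.05. The fit was also run on simulated data with few names changed, in both directions. Most names fell here, so that run does not check calls made under such a shift. Shares and ratios were compared by exact permutation over libraries. Recovered reads were also tested with edgeR 4.0.16 and DESeq2 1.42.0. Folds used ViennaRNA 2.7.2 and alignments Biopython 1.88.

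The members and lists were chosen with earlier results of these data known. Per table, gene and end, the rule for naming took the 3 most abundant names, the shortest, the longest and the least abundant; others were named after their values were seen. Alternatives were another pseudocount (0.1), no filter, a replicate block, omission of each library, and other scalings.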

Additional observations from a re-analysis of the deposited data

How the results depend on the processing

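The number of Y RNA names called lower was 12 under MC-LR and 26 with the Hsp90aa1 shRNA, and it came to 0 in both experiments with edgeR's TMM factors and to 0 in both with DESeq2's size factors (smallest adjusted p 0.285 and 0.399 with edgeR, 0.512 and 0.0754 with DESeq2; unadjusted p under 0.05 for 1 and 7 names with edgeR, 0 and 5 with DESeq2). DESeq2 gave no adjusted p to some Y RNA names in both experiments and could not call those. With the Hsp90aa1 shRNA they included every tested Rny3 name. The counts with the Hsp90aa1 shRNA describe names chosen on that contrast and test nothing. Those scalings set the bulk of the listed names to no change, which by construction removes a difference that most names share. With library totals edgeR called 12 and 26, a pseudocount of 0.1 gave 12 and 26, and no filter on low values 13 and 27. Leaving out 1 library gave 5 to 15 names under MC-LR (5 without MC-LR A, 8 without MC-LR B, 14 without control B and 15 without control A) and 20 to 25 with the Hsp90aa1 shRNA, and the cause was not tested; the library left alone in its group is then taken to vary like the other group. The replicate block gave 12 names under MC-LR and 21 with the Hsp90aa1 shRNA; the labels do not say what a shared letter means, and deviations of same-lettered libraries correlated at 0.065 and -0.61. Pairing A with B, an alternative chosen after seeing the data, called 27. With TMM factors the log2 change was above 0 under MC-LR for piR-mmu-10886432 (0.37), piR-mmu-11468175 (0.57), piR-mmu-17023097 (0.012), piR-mmu-33773834 (0.32), piR-mmu-4696478 (0.77), piR-mmu-4805795 (0.35) and piR-mmu-55381346 (0.37). With the Hsp90aa1 shRNA it was above 0 for piR-mmu-10886432 (0.0029), piR-mmu-2163894 (1.37), piR-mmu-22278509 (0.76), piR-mmu-31325732 (1.03), piR-mmu-33213398 (0.76), piR-mmu-4696478 (0.85), piR-mmu-4702770 (1.42), piR-mmu-4813001 (1.05), piR-mmu-4846899 (1.04), piR-mmu-48931958 (0.78), piR-mmu-4911096 (0.90), piR-mmu-4973331 (0.57), piR-mmu-49913002 (1.85), piR-mmu-5054363 (0.96), piR-mmu-55876333 (0.87), piR-mmu-56137611 (1.30), piR-mmu-58657505 (1.09), piR-mmu-6047705 (1.17), piR-mmu-67691601 (1.39) and piR-mmu-8133887 (0.31). With only the most abundant name of each 5′ start, the difference in the 5′ share of Rny3 was 17.05 points under MC-LR and -8.30 points with the Hsp90aa1 shRNA, against 4.71 and -1.82 points over all names. That setting keeps only the 24-nt 5′ name of Rny3 but most or all of its 3′ names, so it is a different measure. Leaving out 1 library moved the Rny1 share difference between -26.1 and 2.68 points under MC-LR and between -0.17 and 5.08 with the Hsp90aa1 shRNA, and the Rny3 one between 1.96 and 7.47 and between -4.41 and 0.78. The log2 difference in the Rny1 to Rny3 ratio ran between -0.35 and 0.79 under MC-LR and between 1.24 and 2.73 with the Hsp90aa1 shRNA. Rny3 with the Hsp90aa1 shRNA rested on 40 and 13 reads, which limits every value of it.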
